A study of Mus musculus with 16 samples.

Results

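Ribosomal proteins are the protein part of the particle that translates messenger RNA, and the genes that encode those of the cytoplasmic ribosome were followed through 4 groups of mouse B cells. A gene was taken when the single platform symbol of a probe set began with Rpl or Rps and a digit, or was Rplp0, Rplp1, Rplp2 or Rpsa. The ribosomal S6 kinases (Rps6k) and symbols ending in -ps were left out, and the probe set with the highest mean over the 16 arrays stood for its gene. This gave 51 genes of the 18194 named by 1 symbol, found through 107 of the 45101 probe sets on the array, and 24 of the 51 genes had more than 1 probe set. By role, 21 encode proteins of the small subunit, 20 proteins of the large subunit and 2 (Rplp0 and Rplp2) proteins of the P stalk. The remaining 8 are near copies or other loci with a similar name. Among these, Rps19bp1 encodes a protein that binds Rps19 and is no ribosomal protein, and Rps15a-ps6 is a pseudogene locus. Another 31 symbols of the family, Rpl3, Rpl5, Rpl10 and Rplp1 among them, occur only on probe sets that the platform assigns to several genes, and the rule does not take those.

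A ribosome joins a small subunit, which reads the message, to a large subunit, which forms the peptide bonds. Its proteins are needed in matching amounts, and many of their transcripts begin with a run of pyrimidines through which mTOR signalling and the RNA-binding protein Larp1 control translation. Activated B cells raise ribosome production as they grow, and Myc drives many of the genes involved. Single ribosomal proteins also have roles off the ribosome: Rpl5 and Rpl11 bind Mdm2 and so restrain p53 breakdown, Rpl22 acts in lymphocyte development, and Rps6 is phosphorylated by S6 kinase.

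B1a cells came from the peritoneal cavity and B cells (Bs) from the spleen of C57BL/6 (B6) mice and of B6.Sle2c1 (Sle2c1) mice, a congenic strain that carries a lupus susceptibility interval on the B6 background. All mice were 5 months old, and each of the groups B6_B1a, Sle2c1_B1a, B6_Bs and Sle2c1_Bs has 4 arrays described as biological replicates. Per the labels, peritoneal cells lost their macrophages to adherence during 2 h of culture in 10% serum and were then selected against Thy1.2 and CD3 and for CD5, which left a preparation of 80% B220int CD5+ cells. Splenic cells were isolated as CD43-negative cells with a kit and were more than 90% B220hi. The cell type comparison therefore also compares organ, culture and selection, and these cannot be told apart. In such bulk preparations fewer cells of a type and less RNA per cell cannot be told apart either. P-values measure the spread between these arrays alone.

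The start sites of the genes whose signal differed between cell types are shown first, because a pyrimidine run at the start is the feature that ribosomal protein genes are best known for. Each line gives 15 bases before and 15 bases from the start annotated by RefSeq (GRCm38.p6), on the strand of the gene, with the longest run of C and T in capitals.
Rps27: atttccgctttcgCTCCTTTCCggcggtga
Rps24: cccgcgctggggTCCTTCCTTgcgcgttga
Rps9: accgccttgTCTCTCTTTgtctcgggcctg
Rpl27a: gacttcgtgagCTCCTCCCTTTTCCCTTTC
Rps2: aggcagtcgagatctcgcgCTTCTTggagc
Rps7: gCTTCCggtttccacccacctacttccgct
Rps4x: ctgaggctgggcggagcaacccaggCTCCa
Rpl7l1: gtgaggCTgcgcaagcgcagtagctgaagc
Rps19bp1: cagggcggaagtagCTCgccgcgtgtgggc
Rpl37: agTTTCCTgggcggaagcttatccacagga
These windows lie at chr3:90213634-90213663 (minus strand) for Rps27, chr14:24490663-24490692 (plus) for Rps24, chr7:3704026-3704055 (plus) for Rps9 and chr7:109519180-109519209 (plus) for Rpl27a. Those of Rps2, Rps7 and Rps4x lie at chr17:24720048-24720077 (plus), chr12:28635939-28635968 (minus) and chrX:102189377-102189406 (minus). Those of Rpl7l1, Rps19bp1 and Rpl37 lie at chr17:46782642-46782671 (minus), chr15:80264292-80264321 (minus) and chr15:5116598-5116627 (plus). The run was 9 bases long in Rps27, Rps9 and this start of Rps24 (a second annotated start of Rps24 has a run of 4), at least 19 in Rpl27a, where it meets the edge of the window, 6 in Rps2 and Rpl37, 5 in Rps7, 4 in Rps4x, 3 in Rps19bp1 and 2 in Rpl7l1. The genes that differed between cell types thus include windows with a long run and windows without one. The run was counted anywhere in the window, also before the annotated start, so that it does not show how a transcript begins. RefSeq promoters were matched for 44 of the 51 genes (52 promoters, since some genes have several starts), and Rps29 was among those not matched. A run of at least 7 lay in 24 of the 52 windows (46.2%), against 18.6% of the 32851 mouse promoters in the same table. The letters CCGGAAG, searched on both strands of the whole 300-base promoter, were found in 21 of the 52 (40.4%) and in 8.86% of all promoters. On the reverse strand these letters hold a short pyrimidine run, so that the searches can overlap. Both are matches of letters and not measured sites.

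Signal was high and even for most of the family. It is given in units of the deposited score, whose log base and scaling are not stated, so that a difference is never turned into a fold. Values under 0.495 carry no level and were raised to 0.495, called the floor. Over the 16 arrays 37 of the 51 genes averaged above 3 units, between 3.252 and 4.108, and the lowest of these lay at the 96.1th percentile of all features. They comprise 17 genes of each subunit, both stalk genes and Rpl22l1. The 5 highest were Rps24, Rpl13a (whose protein also silences inflammatory transcripts in myeloid cells), Rps29, Rpl38 (needed for translation of a set of Hox transcripts) and Rps3a1. The 5 lowest were Rpl3l, the striated muscle copy of Rpl3, Rps16, Rpl37, Rps4l and Rpl39l, the testis copy of Rpl39. Rpl3l and Rps16 did not pass the filter for a test, which asked for signal above an array's 40th percentile on at least 4 arrays. A low probe set does not show a low transcript: Rps16 lay at the floor on all arrays but 1 with its own probe set, whereas both probe sets shared with Rps16-ps2 averaged between 3.73 and 3.907 units in every group. Another 5 genes, Rps27, Rpl37, Rpl39l, Rps4l and Rps15a-ps6, passed the filter although they lay under the floor on some arrays.

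**Figure D1:**
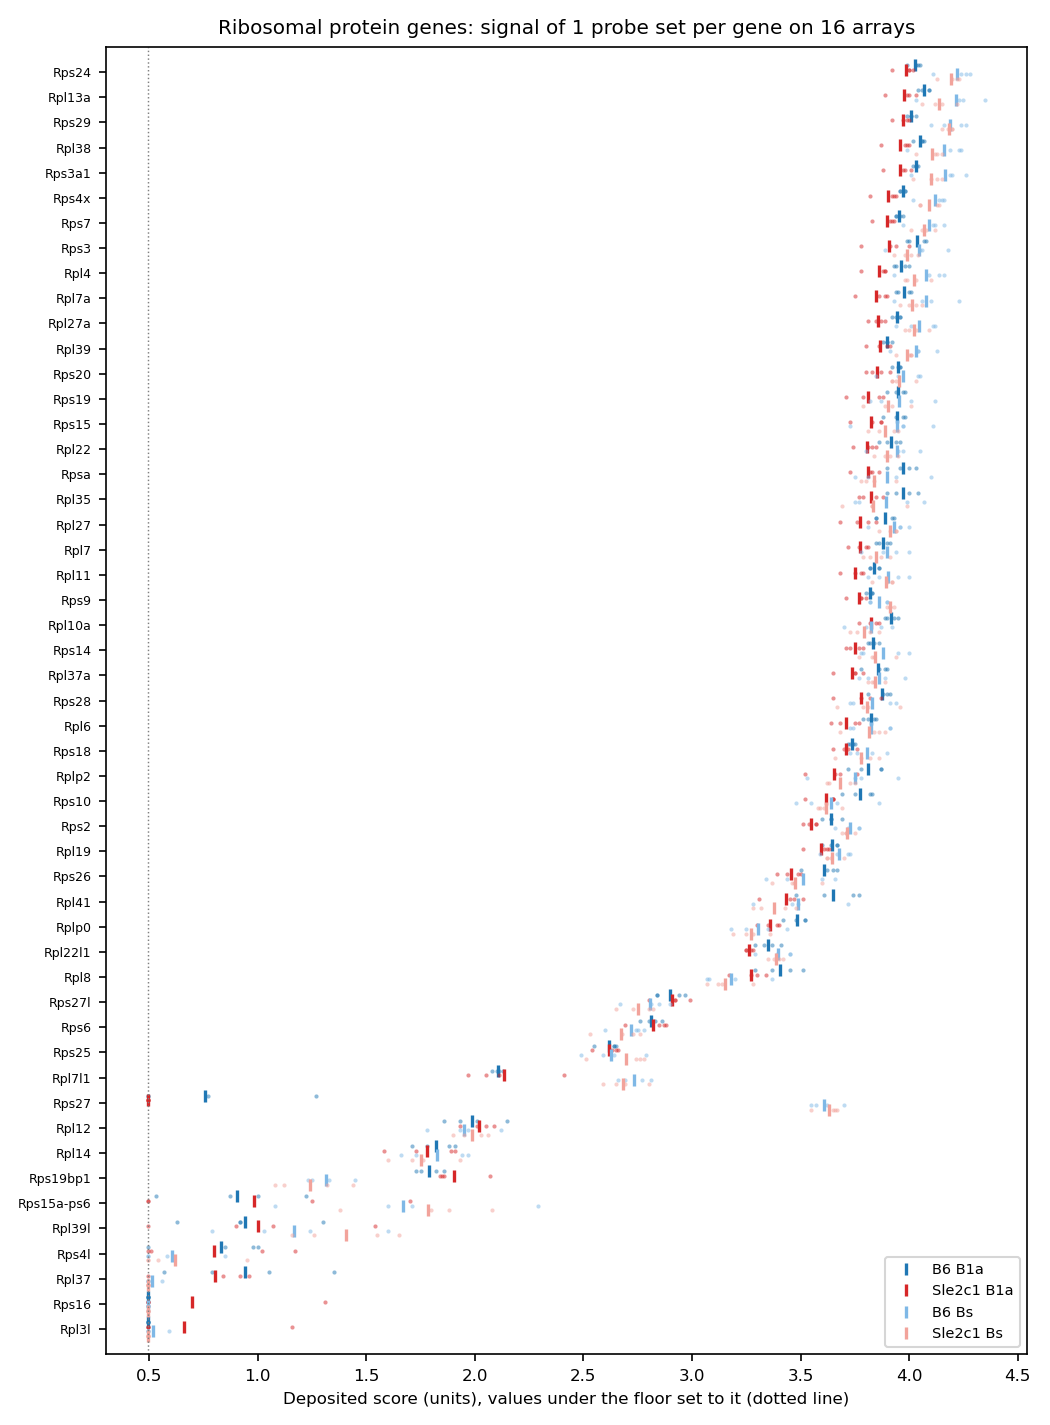
Signal of the 51 genes, ordered by their mean over 16 arrays. The x axis is the deposited score in units, points are single arrays, vertical ticks are the means of 4 arrays, and the dotted line is the floor of 0.495 units; 37 genes crowd between 3.252 and 4.108 units, while Rps27 lies near the floor in both B1a groups and above 3.5 units in both Bs groups.

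Much of the movement of the high genes was a shift that all of them shared on an array. One common shift per array held 56.0% of the variation of the 37 genes around their own means. Their average was 3.837, 3.876, 3.875 and 3.814 units on the B6_B1a arrays 1 to 4 and 3.756, 3.782, 3.773 and 3.683 on the Sle2c1_B1a arrays. On the B6_Bs arrays it was 3.975, 3.918, 3.751 and 3.854, and on the Sle2c1_Bs arrays 3.901, 3.839, 3.808 and 3.805. The 4 B6_B1a arrays all lay above the 4 Sle2c1_B1a arrays, Sle2c1_B1a 4 was the lowest of all 16, and the B6_Bs arrays were spread the most, from 3.751 to 3.975. Bacteriophage cre RNA, a control that is added at hybridisation and does not come from the cells, averaged 4.708 and 4.628 units in B1a cells (B6, then Sle2c1) and 4.754 and 4.712 in Bs cells. Like the ribosomal protein genes, it was lowest in Sle2c1_B1a, on array 4 (4.52). The weaker control bioB went the other way, from 3.248 in B6_B1a to 3.402 in Sle2c1_B1a, and reached 3.552 in B6_Bs and 3.709 in Sle2c1_Bs. The distance between both controls was 1.46 units (B6_B1a), against 1.227 (Sle2c1_B1a), 1.202 (B6_Bs) and 1.003 (Sle2c1_Bs). The part of this scale difference in the results that follow was not tested. The high genes spread most among B6_Bs arrays, with a median SD of 0.104 units, against 0.0332 (B6_B1a), 0.0535 (Sle2c1_B1a) and 0.0532 (Sle2c1_Bs) elsewhere.

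**Figure D2:**
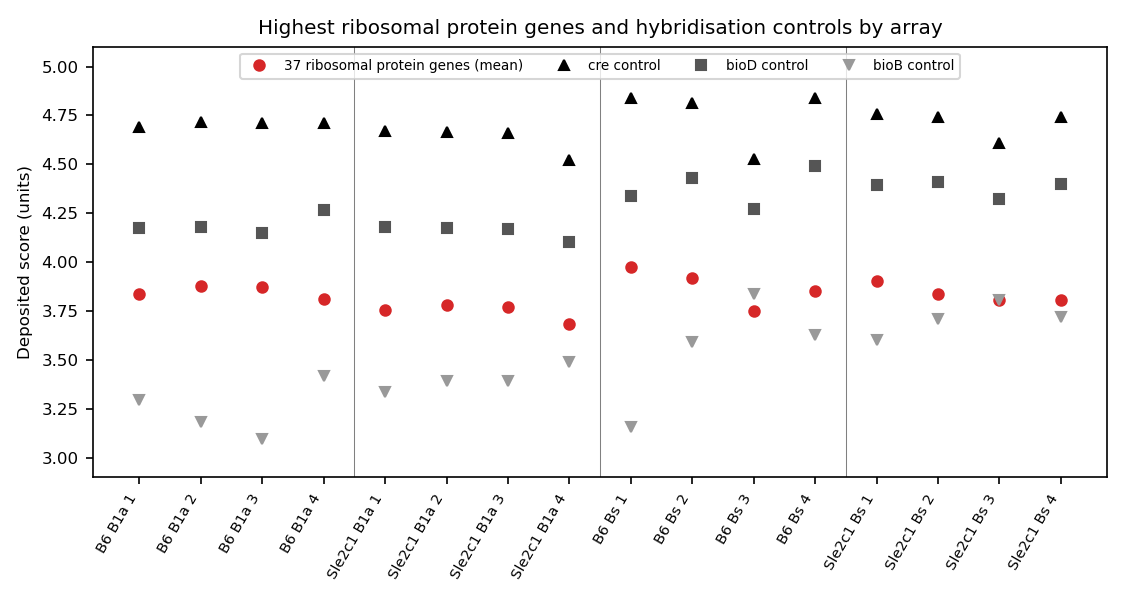
Mean score of the 37 ribosomal protein genes above 3 units on each of the 16 arrays, with the hybridisation controls cre, bioD and bioB; the y axis is in score units and grey lines part the groups. The genes sit between 3.683 (Sle2c1_B1a 4) and 3.975 (B6_Bs 1), and on B6_Bs 3 they fall while bioB rises to 3.835.

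All 7 B cell markers had signal in every group, with sums of 19.6 to 20.4 units on B1a and 20.56 to 21.68 on Bs arrays, and 4 (B6) and 5 (Sle2c1) of them were lower in B1a than in Bs cells, as 12.2% and 14.7% of all features were. After quantile normalization 2 were lower in each strain, and after median centring 0 and 1. Cd5, the antigen used for selection, averaged 1.078 units in B6_B1a and 0.745 in Sle2c1_B1a and was at the floor in Bs cells, and Fcer2a, the follicular B cell marker CD23, averaged 0.79, 0.636, 2.675 and 2.763 units in the order of groups above. Cdkn2c, the gene of the interval named in the title of the series, averaged 1.212 and 0.613 units in B6_B1a and Sle2c1_B1a and 1.415 and 0.521 in B6_Bs and Sle2c1_Bs. Markers of other cells differed between the groups. The 11 macrophage markers summed to between 14.7 and 24.48 units on B6_B1a arrays and between 11.18 and 12.68 on Sle2c1_B1a arrays, where Csf1r, C1qb, C1qc, Timd4 and Apoe were at the floor. The 9 T cell markers summed to 12.06 to 14.01 and 7.58 to 12.58 units in these groups and to 8.61 to 10.28 units in Bs cells, and the 8 mast cell markers to 9.99 to 13.38, 7.24 to 10.98 and 3.96 to 5.93 units. On Bs arrays the macrophage sum was 13.94 to 15.49 units in B6 and 11.84 to 12.97 in Sle2c1. The 3 erythroid markers summed to 1.48 to 2.21 units in B1a and 1.97 to 5.79 in Bs cells, the 5 NK cell markers to 3.44 to 4.12 and 4.98 to 8.18, the 6 neutrophil markers to 8.37 to 10.38 and 8.28 to 12.07, and the 7 plasma cell markers to 17.51 to 20.23 and 18.15 to 19.58. Between B1a and Bs cells of B6, 7 macrophage, 5 mast cell and 3 T cell markers were higher and 2, 0 and 1 lower. There 2 erythroid and 1 NK marker were lower, and 2 neutrophil and 2 plasma cell markers were higher and 2 of each lower. In Sle2c1 2 macrophage, 3 mast cell, 1 T cell, 2 neutrophil and 1 plasma cell marker were higher. In the same comparison 4 macrophage, 1 T cell, 1 erythroid, 2 NK, 1 neutrophil and 1 plasma cell marker were lower. Of all features 9.02% (B6) and 11.0% (Sle2c1) were higher and 12.2% and 14.7% lower. The part of the other cells in any result was not tested.

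In B1a cells, ribosomal protein genes read slightly lower in Sle2c1 than in B6, but no single gene passed the test. Of the 49 genes tested 41 had a lower mean in Sle2c1_B1a, 7 a higher one and 1 the same, with a median difference of -0.092 units against 0.025 over all 22727 features. None passed limma's moderated test after Benjamini-Hochberg adjustment (smallest adjusted p = 0.255), 2 (Rpl41 and Rpsa) had an unadjusted p under 0.05, and 3.38% of all features passed. The arrays of the groups did not overlap in 23 of the 49 genes, lower in Sle2c1 in each, and 4.15% of all features were separated in that direction and 4.23% in the other. Between 3.5 and 4.5 units, 21 of the 33 ribosomal protein genes (63.6%) and 24.6% of the 452 other features were so separated, with medians of -0.095 and -0.06 units. The other features include probe sets of the family that are assigned to several genes, so that they are not free of ribosomal protein genes. Since the high genes share 1 shift per array, these counts are not independent of each other. The shift depended on the scaling, with a median of -0.218 units when each array was centred on its median (all features -0.072) and -0.024 after quantile normalization.

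Single genes of both subunits and the stalk show the size of these differences. Rps27, which lay near or at the floor in B1a cells, had the widest, -0.2625 units (SE 0.1292, limma adjusted p = 0.317), with arrays that overlapped at the floor. Rpsa, the laminin receptor and a small subunit protein, read 3.96, 4.00, 4.03 and 3.90 units on the B6_B1a arrays and 3.82, 3.86, 3.83 and 3.73 on the Sle2c1_B1a arrays. Every B6_B1a array was higher, yet the difference of -0.1625 (SE 0.0732) did not pass (limma, adjusted p = 0.274). Rpl41, the smallest protein of the large subunit, read 3.61, 3.74, 3.77 and 3.48 units in B6_B1a and 3.51, 3.47, 3.45 and 3.31 in Sle2c1_B1a. Its groups overlapped, with a difference of -0.215 (SE 0.0933, limma adjusted p = 0.255). Rplp0, the anchor of the P stalk to which elongation factors dock, read 3.52, 3.52, 3.48 and 3.42 units in B6_B1a and 3.35, 3.40, 3.39 and 3.30 in Sle2c1_B1a, with no overlap, and Rplp2 of the same stalk averaged 3.81 and 3.655 with overlap. Rps3, which lines the entry of the messenger RNA channel, averaged 4.035 ± 0.0465 (SD, n = 4) and 3.907 ± 0.0929 units. Rpl11 averaged 3.84 ± 0.0231 and 3.75 ± 0.0497 (SD, n = 4), and Rpl22 3.915 ± 0.0443 and 3.808 ± 0.0479. Rps6 read 2.812 and 2.822 units with its own probe set, a difference of 0.01. Its probe sets shared with Rps6-ps4 differed by -0.1 to -0.045 where they read about 4 units and by 0.067 to 0.245 where they read less.

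The test of the strain difference in B1a depended on how the spread was estimated. The fit over all 16 arrays shares 1 spread, to which the wide B6_Bs group contributes. In a fit of the 8 B1a arrays alone with a trended, robust spread, which was added after the data had been seen, 7 genes fell in Sle2c1 and 0 rose, while 1.16% of all features fell and 1.42% rose. They were Rpsa (adjusted p = 0.0127), Rpl35 (0.0235), Rps10 (0.0314), Rps26 (0.0359), Rps19 (0.0364), Rpl7a (0.0412) and Rpl7 (0.0424), with differences between -0.162 and -0.105 units. That fit was run on the deposited scaling only, and without the trended, robust spread the same 8 arrays gave no call. All 7 genes encode proteins of the subunits, and these adjusted p-values are from limma. Beside this stand the macrophage sums, which separated the same groups and whose part in it was not tested. They were 20.09, 14.7, 20.48 and 24.48 units on the B6_B1a arrays 1 to 4 and 11.18, 11.24, 12.68 and 11.97 on the Sle2c1_B1a arrays.

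**Figure D3:**
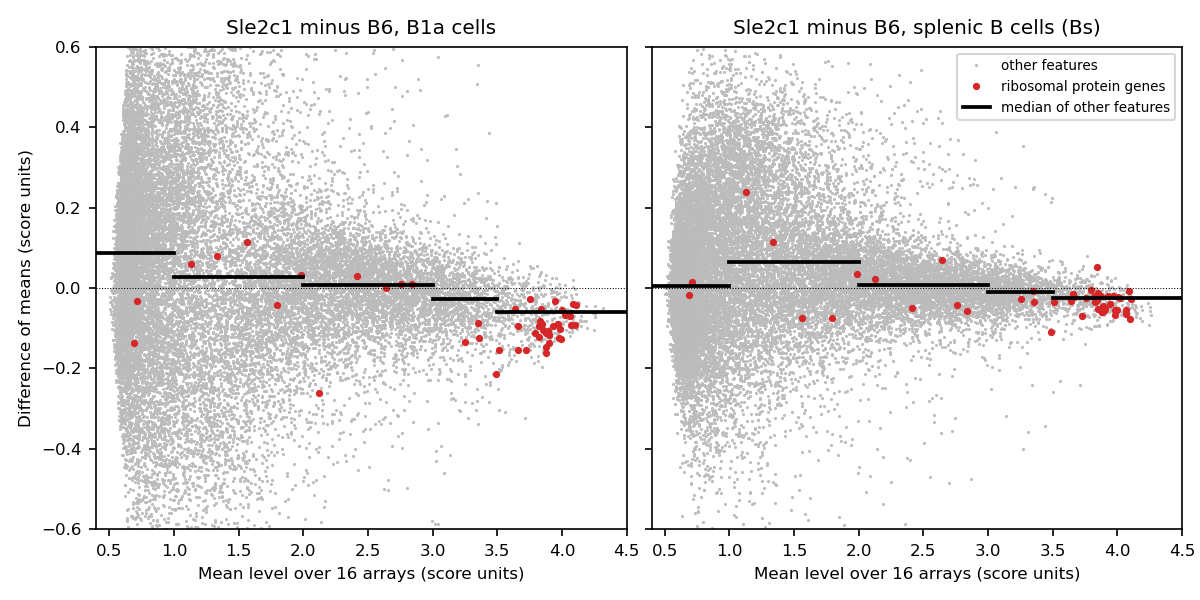
Difference of means, Sle2c1 minus B6, in B1a cells (left) and splenic B cells (right) against the mean level over 16 arrays, both in score units. Red points are the 49 ribosomal protein genes, grey points the other features (those beyond 0.6 units are off the panel), and black bars the medians of other features by level. The other features include probe sets of the family that are assigned to several genes. In B1a the high genes lie under 0, where the other high features have a median of -0.06.

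In splenic B cells the family showed no strain difference that could be told from the spread. None of the 49 genes passed limma's test (adjusted p = 1.0 throughout, 0 with an unadjusted p under 0.05), and 0.154% of all features passed. The means were lower in Sle2c1_Bs for 42 genes, with a median difference of -0.03 units, while 0 genes were separated, against 1.15% of all features separated with lower values. Rpsa averaged 3.9 ± 0.155 (SD, n = 4) units in B6_Bs and 3.84 ± 0.0712 in Sle2c1_Bs. Rpl41 averaged 3.488 ± 0.181 and 3.378 ± 0.0932 units. Rpl39l had the largest difference, 0.24 units higher in Sle2c1_Bs at a level near 1 unit with overlapping arrays. Whether the strain difference itself differed between B1a and Bs cells was tested too: 0 of the 49 genes passed (limma, smallest adjusted p = 0.824, 0 with an unadjusted p under 0.05), against 0.431% of all features. That difference was below 0 for 43 genes, with a median of -0.062 units.

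Between cell types, a few genes differed and the rest of the family did not move as 1 block. In B6 mice 2 genes were higher in B1a than in Bs cells (Rps19bp1 and Rpl37) and 4 lower (Rps27, Rpl7l1, Rps24 and Rps29), which is 12.2% of the 49, against 21.3% of all features (9.02% higher and 12.2% lower). In Sle2c1 mice 1 was higher (Rps19bp1) and 9 were lower (Rps27, Rpl7l1, Rps29, Rps24, Rps4x, Rps2, Rps9, Rpl27a and Rps7), which is 20.4%, against 25.8% of all features (11.0% higher and 14.7% lower). Rps9, Rpl27a and Rps7 lie outside the rule for named genes and are named after their values were seen. Their calls ended when single arrays were left out (4, 5 and 3 of the 16). They also ended after quantile normalization, after median centring and with the mean of all probe sets of a gene. The B1a arrays lay below all Bs arrays in 5 genes in B6 and in 20 in Sle2c1, where 11.6% and 15.5% of all features did so, and above them in 2 and 1, where 10.7% and 10.0% did. The median difference was -0.025 units in B6 and -0.092 in Sle2c1, but after quantile normalization it was 0.071 and 0.05, so that no direction can be given for the family. With that scaling 6 genes were higher and 2 lower in B6 (9.87% and 11.6% of all features), and 2 higher and 3 lower in Sle2c1 (11.2% and 13.6%). Among features between 3.5 and 4.5 units the 33 ribosomal protein genes had medians of -0.04 (B6) and -0.108 (Sle2c1), and the 452 other features -0.1 and -0.134. At this level the B1a arrays lay below all Bs arrays in 3 (9.09%, B6) and 17 (51.5%, Sle2c1) of the 33 genes. They did so in 40.9% and 57.7% of the 452 other features. Here too the other features include probe sets of the family that are assigned to several genes. These comparisons use the same B1a arrays as the strain comparison above, and markers of other cells differed between the same groups, as given above.

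Rps27, a small subunit protein with a zinc finger (metallopanstimulin), showed by far the widest difference among the genes tested. Its probe set read 1.27 and 0.77 units on 2 of the B6_B1a arrays and was at the floor on the others, and it was at the floor on all 4 Sle2c1_B1a arrays. On Bs arrays it read 3.62, 3.70, 3.57 and 3.55 units in B6 and 3.67, 3.66, 3.65 and 3.55 in Sle2c1. No B1a array came near a Bs array. The difference was -2.8525 units in B6 (SE 0.1292, limma adjusted p = 1.49e-09) and, as a lower bound of its size because a whole group was at the floor, -3.1375 in Sle2c1 (adjusted p = 4.55e-10). With no floor the difference in B6 was as large (-2.9), but it did not pass (limma adjusted p = 0.0597). A probe set shared by Rps27 and its retrogene Rps27rt read otherwise: it averaged 4.035 units in B1a against 4.208 in Bs cells of B6, and 3.958 against 4.145 in Sle2c1, with differences of -0.172 and -0.187. The loss of signal in B1a cells was thus seen with 1 of the 2 probe sets assigned to Rps27, and which transcript each one detects was not tested. The near copy Rps27l, a p53 target, averaged 2.898, 2.908, 2.808 and 2.75 units and did not pass (limma adjusted p = 0.364 in B6 and 0.0963 in Sle2c1).

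The other small subunit genes moved by far less. Rps24, mutated in Diamond-Blackfan anaemia, read 3.99, 4.04, 4.03 and 4.05 units in B6_B1a and 4.24, 4.26, 4.11 and 4.28 in B6_Bs. All B1a arrays were lower, and the difference was -0.195 units (SE 0.0519, limma adjusted p = 0.0165). In Sle2c1 it read 4.00, 4.02, 4.00 and 3.92 units in B1a against 4.22, 4.23, 4.13 and 4.20 in Bs cells, a difference of -0.21 (limma adjusted p = 0.00868). Rps29, a small zinc-binding protein, behaved alike, at 4.01 ± 0.0163 (SD, n = 4) against 4.19 ± 0.0739 units in B6 and 3.97 ± 0.0356 against 4.182 ± 0.0236 in Sle2c1, with differences of -0.18 and -0.2125 (limma adjusted p = 0.0179 and 0.00533). Rps4x, the X-linked form of a small subunit protein, differed by -0.1475 in B6 (adjusted p = 0.0549) and by -0.19 in Sle2c1 (adjusted p = 0.0144, limma for both). Rps2, of the small subunit, differed by -0.0875 (limma adjusted p = 0.198) and -0.1675 (0.0167). The calls of Rps24 and Rps29 in both strains and of Rps4x and Rps2 in Sle2c1 did not hold after quantile normalization or median centring. Quantile normalization brought the differences to between -0.062 and -0.01 units. Median centring left them at -0.168 and -0.152 for Rps24 and Rps29 in B6 and at -0.232, -0.235, -0.212 and -0.19 for Rps24, Rps29, Rps4x and Rps2 in Sle2c1. The calls of Rps24 in both strains and Rps29 in B6 also ended with the mean of all probe sets of a gene. Leaving out B6_Bs 2 ended the calls of Rps24 and Rps29 in B6 (limma adjusted p = 0.0526 and 0.0604), as did leaving out B6_Bs 4 for Rps29 (0.0517) and Sle2c1_Bs 1 for Rps2 in Sle2c1 (0.0506).

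The stalk and large subunit genes gave 1 call in each strain. Rplp0 averaged 3.485 ± 0.0473 units (SD, n = 4) in B6_B1a and 3.305 ± 0.114 in B6_Bs, a difference of 0.18 that missed the threshold (limma adjusted p = 0.0559). In Sle2c1 it differed by 0.09 (limma adjusted p = 0.311). Rplp2 differed by 0.0575 and -0.0275. Rpl8, a large subunit protein near the peptidyl transferase centre, averaged 3.405 against 3.18 units in B6, a difference of 0.225 (limma adjusted p = 0.0542). After quantile normalization Rplp0 and Rpl8 passed in B6 as higher, by 0.229 and 0.266 units. Rpl27a differed by -0.17 units between Sle2c1_B1a and Sle2c1_Bs (limma adjusted p = 0.029) and differed by -0.1 in B6 (adjusted p = 0.194). Its call in Sle2c1 did not hold after quantile normalization or median centring. Rpl37 was close to the floor: it read 0.79, 1.35, 1.05 and 0.57 units in B6_B1a, 0.56 on B6_Bs 1 and the floor on the other B6_Bs arrays. Its call as higher (0.4287, SE 0.1365, limma adjusted p = 0.0385) ended without any 1 of 7 arrays (B6_B1a 2 and 3, B6_Bs 2, 3 and 4, Sle2c1_Bs 1 and 2), with adjusted p between 0.0511 and 0.108. It also ended after quantile normalization and median centring (limma adjusted p = 0.0588 and 0.0634). With no floor and with the floor at 1 unit it ended as well (0.137 and 0.272).

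**Figure D4:**
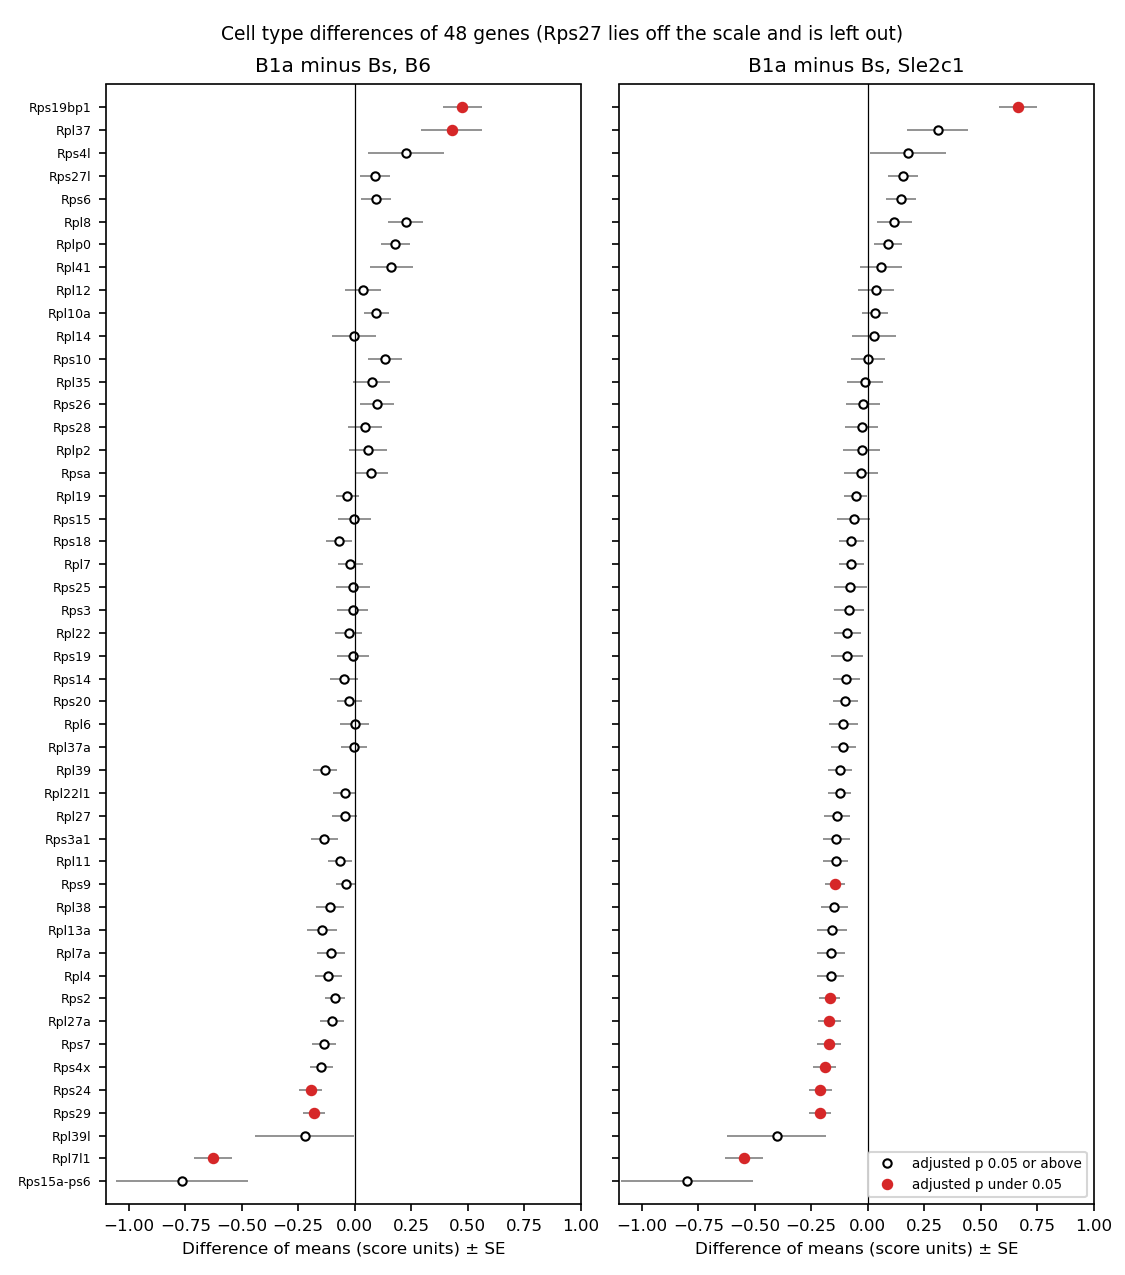
Difference of means between B1a and Bs cells in B6 (left) and Sle2c1 (right) for the genes tested other than Rps27, in score units with the SE from limma; red points passed at an adjusted p under 0.05. Rps27 (-2.8525 and -3.1375) is off this scale; most of the others lie within 0.25 units of 0.

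Near copies and other loci were mostly at lower signal, and Rps19bp1 and Rpl7l1 were called in both strains, in opposite directions. Rps19bp1, which also regulates the deacetylase Sirt1, read 1.75, 1.73, 1.86 and 1.82 units in B6_B1a and 1.45, 1.25, 1.33 and 1.23 in B6_Bs. It read 1.84, 1.85, 1.86 and 2.07 units in Sle2c1_B1a and 1.44, 1.12, 1.08 and 1.32 in Sle2c1_Bs. No B1a array overlapped a Bs array, and the differences of 0.475 (SE 0.0861, limma adjusted p = 0.00129) and 0.665 (adjusted p = 5.63e-05) passed in every alternative run, single arrays left out included. Rpl22l1, the paralog that can replace Rpl22, averaged 3.35, 3.262, 3.395 and 3.387 units in the 4 groups, and Rpl22 3.915, 3.808, 3.943 and 3.898. Rpl39 averaged 3.9, 3.867, 4.03 and 3.99 units. Its copy Rpl39l averaged 0.942, 1.001, 1.165 and 1.405 with overlapping arrays. Rps15a-ps6 averaged 0.905, 0.985, 1.67 and 1.785 units, and its differences of -0.765 and -0.8 missed the threshold (limma adjusted p = 0.0754 and 0.0568). Rps4l averaged between 0.605 and 0.831 units, with arrays at the floor in every group.

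Rpl7l1, a factor of large subunit maturation that resembles Rpl7, showed how far a call could rest on 1 probe set. The probe set with the highest mean read 2.11, 2.10, 2.08 and 2.13 units in B6_B1a and 2.77, 2.66, 2.69 and 2.81 in B6_Bs, a difference of -0.6275 (SE 0.0832, limma adjusted p = 8.94e-05). In Sle2c1 it differed by -0.5475 (limma adjusted p = 0.000232). A second probe set of the gene averaged 2.505 units in B6_B1a and 2.188 in B6_Bs, and the other one 2.062 and 1.755. Both were therefore higher in B1a cells, by 0.317 and 0.308 units in B6 and by 0.435 and 0.375 in Sle2c1. With the mean of all probe sets of a gene the call ended in both strains, and in Sle2c1 the difference turned to 0.088 (limma adjusted p = 0.297). Rpl7 itself averaged 3.88 units in B6_B1a and 3.9 in B6_Bs.

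Other genes had probe sets that disagreed in sign, mostly by little. Of 20 genes with at least 2 probe sets above the floor on all arrays, probe sets had opposite signs in 13 between cell types in B6, in 11 between cell types in Sle2c1, in 6 between strains in Bs and in 4 between strains in B1a. Many of these differences are near 0: beyond 0.1 units in both directions, a limit chosen after the values were seen, there were 4 genes in B6 (Rpl41, Rpl7l1, Rps18 and Rps24) and 4 in Sle2c1 (Rpl13a, Rpl7l1, Rps24 and Rps9). Rps20, Rpl41 and Rps9 are described as examples chosen after their values were seen. For Rps20 the highest probe set differed by -0.025 units in B6, whereas another read 2.33, 2.17, 2.24 and 2.39 units in B6_B1a and was at the floor on all B6_Bs arrays, a difference of at least 1.788. For Rpl41 the highest probe set differed by 0.163 and another by -0.82 units in B6, with 2.61 to 2.73 in B6_B1a and 3.39 to 3.55 in B6_Bs. For Rps9 the highest probe set differed by -0.04 units in B6 and -0.145 in Sle2c1, and another by 0.485 and 0.443. For Rps24 the 4 highest probe sets all fell below Bs cells, and they carry the suffix x, by which the manufacturer marks sets with probes that can match other transcripts. The plain probe set of Rps24 that was tested turned the difference to 0.102 units in B6 (limma adjusted p = 0.467) and to 0.265 in Sle2c1 (adjusted p = 0.0489). Of the 51 probe sets that stood for a gene 15 carried the suffix x, 18 the suffix a, 1 the suffix s and 17 none. Ribosomal protein genes have many processed pseudogenes, and which copies a probe set detects was not tested.

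**Figure D5:**
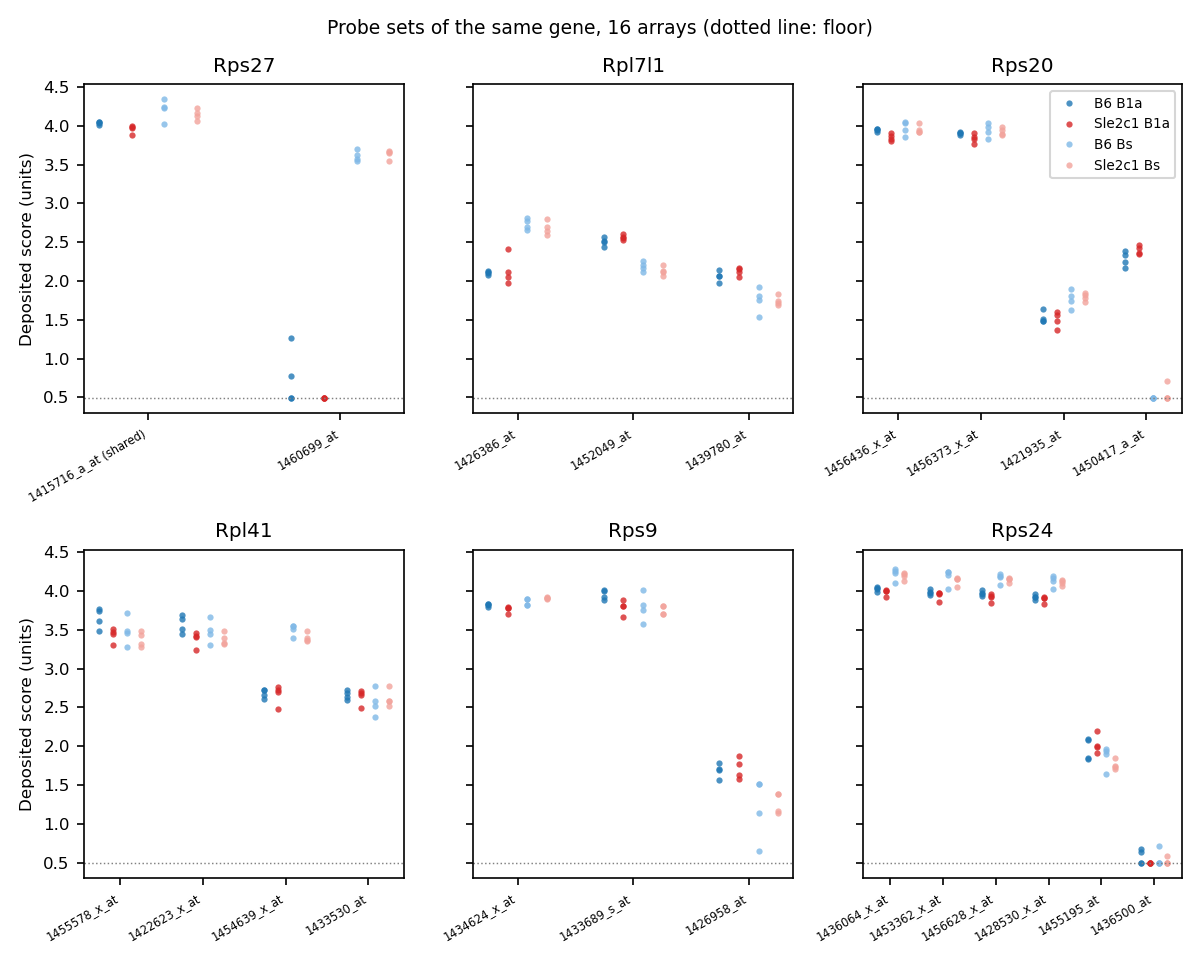
Every probe set of Rps27, Rpl7l1, Rps20, Rpl41, Rps9 and Rps24 on the 16 arrays, in score units, coloured by group, with values under the floor set to it; the Rps27 panel adds the probe set shared with Rps27rt. The probe set of Rps27 alone is near the floor in B1a while the shared set stays above 3.8 units, and the probe sets of Rpl7l1 point in opposite directions.

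The 99 probe sets of the family that are assigned to several genes and were above the floor on all arrays give a second view of the genes the rule leaves out. Their median strain difference in B1a was -0.1 units, with 88 below 0. In Bs cells it was -0.038, with 78 below 0. Between cell types it was -0.05 in B6 (63 below 0) and -0.098 in Sle2c1 (80 below 0). The others were at the floor on some arrays, and among them a probe set of Rps21 averaged 3.39 and 3.442 units in B1a (B6, then Sle2c1) and was at or next to the floor in Bs cells. One of Rps12 did the reverse, with 2.202 and 2.268 units in Bs cells and the floor in B1a. Other shared probe sets of Rps21 and most of those of Rps12 read about 4 units in every group, and both examples were chosen after their values were seen. The values of the 99 are close to those of the 49 genes, and they come from the same arrays and carry the same shift per array.

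Many genes that build ribosomes were higher in B1a than in Bs cells. Of 34 ribosome assembly and nucleolar factors 15 were higher in B1a than in Bs cells in B6 and 21 in Sle2c1, 0 were lower in either, and the medians were 0.189 and 0.248 units, where 9.02% and 11.0% of all features were higher. After median centring 7 and 9 were higher and after quantile normalization 17 and 21, with 0 lower in each. Over all 22727 features, 1622 and 1634 were higher and 2754 and 3316 lower after median centring. After quantile normalization 9.87% and 11.2% of them were higher. Rrp1b, a nucleolar protein of ribosomal RNA processing, averaged 3.002 units in B6_B1a and 2.408 in B6_Bs (0.595, limma adjusted p = 3.4e-05). Gnl3 (nucleostemin) rose by 0.4075 units, Bysl, needed for small subunit assembly, by 0.56 and Nop16 by 0.5025 (limma adjusted p = 0.000142, 0.00168 and 0.00225). Of 14 subunits and factors of RNA polymerase I, which makes ribosomal RNA, 2 were higher in B6 and 4 in Sle2c1, with Polr1c at 0.2925 and 0.1675 units, but 1 and 0 after median centring. Of 76 mitochondrial ribosomal proteins 6 were higher and 4 lower in B6, and 16 higher and 2 lower in Sle2c1. Of all features 9.02% were higher and 12.2% lower in B6, and 11.0% and 14.7% in Sle2c1. Mrps16 differed by -0.725 units and Mrpl52 by 0.42 in B6. Median centring left 2 higher and 2 lower in B6 and 2 higher and 3 lower in Sle2c1. After quantile normalization 8 were higher and 3 lower in B6, and 12 higher and 3 lower in Sle2c1. With that scaling 9.87% and 11.2% of all features were higher and 11.6% and 13.6% lower.

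Translation factors and regulators moved in both directions. Of 24 initiation factors 5 were higher and 2 lower in B1a in B6, and 7 higher and 2 lower in Sle2c1. Of all features 9.02% were higher and 12.2% lower in B6, and 11.0% and 14.7% in Sle2c1. These shares also stand beside the lists that follow. Eif1a, which helps to select the start codon, rose by 0.5725 units in B6 (limma adjusted p = 6.99e-06), and Eif3a, the scaffold of eIF3, fell by 0.2, a call that ended with quantile normalization (adjusted p = 0.0739). After that scaling 5 and 11 were higher and 0 lower, and after median centring 2 in each strain were higher and 0 lower. Of all features 9.87% and 11.2% were higher and 11.6% and 13.6% lower after quantile normalization. After median centring 1622 and 1634 of the 22727 features were higher and 2754 and 3316 lower. Of 7 elongation factors and partners 2 were lower and 0 higher in each strain, namely Eef1a1, which brings aminoacyl-tRNA to the ribosome (-0.1925 and -0.2), and Tpt1 (-0.205 and -0.2). Neither passed after quantile normalization or median centring, so that these calls depend on the scaling as those of Rps24 and Rps29 do. Eif4ebp2, a repressor of cap-dependent translation under mTOR control, fell by 1.225 units in B6 and by 1.215 in Sle2c1. Akt1 rose by 0.34 and 0.27 units, and Larp1, which binds the pyrimidine run of ribosomal protein transcripts, by 0.28 and 0.255, in a list of 12 in which 2 were higher and 3 lower in B6 and 3 and 3 in Sle2c1. After median centring Eif4ebp2 passed in both strains and Akt1 and Larp1 in neither. This list holds Pdk1, which the array uses for a pyruvate dehydrogenase kinase and which is no part of mTOR signalling. Myc averaged 2.312 against 1.615 units in B6 and 2.54 against 1.625 in Sle2c1, and was higher in B1a by 0.6975 and 0.915 units (limma adjusted p = 0.000533 and 3.75e-05). It belongs to a list of 6 genes of the Myc family, of which 2 were higher in B6 and 1 in Sle2c1.

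Few members of these lists passed between strains, where 3.38% of all features passed in B1a and 0.154% in Bs cells. In B1a cells 1 of the 24 initiation factors was higher in Sle2c1, Eif6, which keeps free large subunits from joining, at 1.952 units in B6_B1a and 2.265 in Sle2c1_B1a (0.3125, limma adjusted p = 0.0223, but 0.145 after quantile normalization and 0.382 after median centring). Mxi1, an antagonist of Myc, differed by -0.26 units (limma adjusted p = 0.0413, but 0.0525 and 0.0719 with these scalings). Of the assembly factors, polymerase I genes, mitochondrial ribosomal proteins, elongation factors and mTOR genes 0 passed in B1a, with 4, 1, 2, 1 and 1 at an unadjusted p under 0.05. In Bs cells 0 members of any of these lists passed limma's test, and 1 mitochondrial ribosomal protein had an unadjusted p under 0.05.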

How the data were processed

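RNA of 16 preparations was amplified, labelled with biotin (NuGEN Ovation) and hybridised to Affymetrix Mouse Genome arrays, per the labels' protocols. The authors deposited 1 value per probe set and array, in a unit that is treated as a score because its log base, centring and scaling, like the software that made it, are not given in the sources used here. No count underlies it, and the number of arrays limits the precision. Log2 values had been assumed when the tests were chosen. Control probe sets (64) were not tested.

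The floor of 0.495 is the median of the arrays' 40th percentiles, and lower values were set to it. Probe sets that exceeded this percentile of an array on 4 or more arrays were kept, 1 probe set per gene by the highest mean, which left 22727. The platform annotation names 34958 probe sets by 1 gene, 932 by several and 9211 by none. Its symbols defined the genes, and symbols updated from RefSeq (GRCm38.p6) served to find members of the pathway and marker lists. The 4 group means were fitted over all 16 arrays with limma 3.58.1 in R 4.3.3, as a two-sided test with p-values adjusted by Benjamini-Hochberg across the whole table and called under 0.05. The fit was tested on simulated data for the strain contrast in B1a, with spread drawn independently for each feature. Those data lack the shift per array that the high genes share. Genes named are, per comparison, up to 6 higher and 6 lower genes past the threshold with the smallest adjusted p, the 5 highest and 5 lowest by level, genes with known roles, near copies, and up to 4 of each pathway list. The pathway list of ubiquitin-fusion partners held 1 gene tested, with 0 calls. The members and lists were chosen with earlier results of these data known.

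Replicate numbers were checked for pairing by the deviations from the group means. Between the strains, same-numbered Bs arrays correlated at 0.112 to 0.621 and differently numbered ones at -0.574 to 0.426. For B1a arrays these ranges were -0.011 to 0.167 and -0.236 to 0.145. The own number gave the best correlation for 5 of 8 Bs arrays and 4 of 8 B1a arrays. All same-numbered Bs pairs were positive, whereas differently numbered ones had both signs. Whether the numbers mark pairs was not settled. The alternatives were other filters, floors, probe set choices, scalings, forms of the test and thresholds, a replicate block, and leaving out arrays.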

Additional observations from a re-analysis of the deposited data

Results flagged for a closer look

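For the named genes, 100 groups of 4 arrays were checked for a single array far from the other 3 (Dixon's test), and 9 were found. Chance flags about 1 in 20 groups. In Sle2c1_B1a, array 4 lay apart for 3 genes, with Rpl38 at 3.87 units (the others at 3.98 to 4.0), Rps4x at 3.82 (3.92 to 3.94) and Rps19bp1 at 2.07 (1.84 to 1.86). Array 4 also had the lowest mean of the high ribosomal protein genes and the lowest cre control of its group. In the same group array 1 was low for Rps6, at 2.69 units (2.85 to 2.88). Among Sle2c1_Bs arrays, array 3 was low for Rpl39 (3.94, others 4.0 to 4.01), and array 4 was low for Rps27 (3.55, others 3.65 to 3.67) and high for Rps4l (0.95, others 0.5 to 0.54). Of the B6_Bs arrays, array 3 was low for Rps4x (4.02, others 4.14 to 4.16) and array 1 was the only one above the floor for Rpl37 (0.56). Rpl37 and Rps4l are near the floor.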

How the results depend on the processing

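No gene passed between strains in Bs cells, or in the difference of the strain differences, under any alternative run. In B1a the strain comparison gave 1 call with no floor and 7 in the added fit of 8 arrays with a trended, robust spread, and 0 under the others, single arrays left out included. Of all features 2.0% and 2.58% passed with no floor and in the added fit. Between cell types in B6 the count of 6 became 12 at an adjusted p under 0.10, 10 (of 44 genes) with features above the floor on all arrays, 11 with the floor at 1 unit, 17 with a trended, robust spread and 11 without the 4 arrays that stood apart (Sle2c1_B1a 4, B6_Bs 1, B6_Bs 3 and Sle2c1_Bs 3). Of all features 41.9%, 20.4%, 24.2% and 23.3% passed under the last 4 of these, against 21.3% in the main fit. Leaving out 1 array gave 3 (without B6_Bs 2) to 12 (without B6_Bs 3), with 10 without B6_Bs 1. In Sle2c1 the count of 10 became 20, 19, 18 and 21 under the first 4 of these, 24 in the added fit, 6 with the mean of all probe sets, 6 with plain probe sets, 5 after quantile normalization and 4 after median centring. Leaving out 1 array gave 6 (without Sle2c1_Bs 1) to 17 (without B6_Bs 3). Differences turned for Rpl7l1 in Sle2c1 (0.088, mean of all probe sets) and for Rps24 with its plain probe set (0.102 in B6, 0.265 in Sle2c1). The cause was not tested. The replicate block left 0 calls between strains and gave 7 and 10 between cell types in B6 and Sle2c1, so that it changed no call beyond 1 added in B6. Signal near the floor limits Rpl37, Rps4l, Rpl39l and Rps15a-ps6.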
